A study of Mus musculus with 12 samples.

Results

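The comparison described here sets NR3B knockout mice against wild-type mice at postnatal day 5 (P5). NR3B is taken to be the protein of the gene Grin3b, a subunit of NMDA receptors. Each genotype has 3 samples at this age, and these 6 of the 12 samples in the series were taken by their titles. The other 6 samples hold the same genotypes at postnatal day 0 (P0). The tissue is labelled both as brain with hindbrain and spinal cord and simply as brain. They do not give the strain, the deleted part of the gene, the cells in which it was deleted or how many animals made up a sample. Nothing in them states that samples of a group are from different animals, so each p reflects only how these samples vary, and that variation may be technical.

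NMDA receptors are ion channels opened by glutamate together with glycine or D-serine. They pass calcium and take part in synaptic plasticity. Most hold the subunit encoded by Grin1 together with subunits of the Grin2 family. The subunits of the Grin3 family, Grin3a and Grin3b, bind glycine and lower the calcium flow of the receptors that contain them, and Grin3b is best known from motor neurons of the brainstem and spinal cord.

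Each array gave a signal for 45037 probe sets, short probe groups that mostly read the 3′ end of a transcript, besides 64 control probe sets. The signals were quantile-normalized over the 6 arrays on a log2(signal + 16) scale and compared with limma. A probe set passed the threshold where its Benjamini-Hochberg adjusted p over all probe sets was under 0.05. Signals below are the deposited ones, whereas differences and overlaps are those of the normalized values, knockout minus wild type. A difference on this scale understates the change of dim probe sets. Levels are not compared between probe sets, except that percentiles of mean level serve as a rough guide to brightness.

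The 6 arrays were alike in quality. Median signals ran from 678.8 to 720.9, and the log2 ratio of the 3′ to the 5′ actin control ran from 0.25 to 0.34. Array values correlated at 0.952 to 0.955 within a genotype and at 0.950 to 0.955 between genotypes. Some astrocyte, myelin and hindbrain and spinal cord genes were bright, with Gfap at the 97th percentile of probe set means, Mbp at the 100th and Hoxa5 at the 90th. Others were dimmer, with the myelin gene Opalin at the 46th and the motor neuron gene Mnx1 at the 14th. Knockout sample 2 stood apart from the other samples in sex-linked genes. Its Xist probe set 1427262_at, which reads an RNA made from the inactive X chromosome of females, gave 21367, against 17.5 to 215.5 in the other 5 samples. Its signal for the Y-linked Eif2s3y was 74.0, against 4959 to 5971 in the others. Without this sample 6 probe sets passed the threshold, and all 5 that passed with it were among them.

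In P5 knockout tissue few transcripts were detected as different from wild type, and all that passed the threshold were lower. With 3 samples per genotype, a probe set that did not pass is not thereby shown to be unchanged. Of 45037 probe sets 5 passed, which is 0.0111% of those tested, with 0 higher and 5 lower. They read Tmem259, the gene beside Grin3b; Gm3515, a name that RefSeq lists for the long noncoding RNA gene Rmst; Ndufa12, a subunit of mitochondrial complex I; Efhd2, a calcium-binding protein tied to actin; and a transcript to which the annotation gives no gene. The samples of the genotypes did not overlap in 2837 probe sets that were higher in the knockout (6.3%) and 2443 that were lower (5.42%). An unadjusted p under 0.05 was reached by 1480 probe sets with higher and 1271 with lower values in the knockout. The median difference over all probe sets was -0.00 on the log2 scale. The count of 5 became 9 without wild-type sample 3 and 8 without knockout sample 1, and it was 2 when all 12 samples shared a fit. Of the probe sets that passed, 1 was higher in the knockout without wild-type sample 1 (Minar2), 1 without wild-type sample 3 (Hddc3) and 1 without knockout sample 1 (Scyl2).

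**Figure D1:**
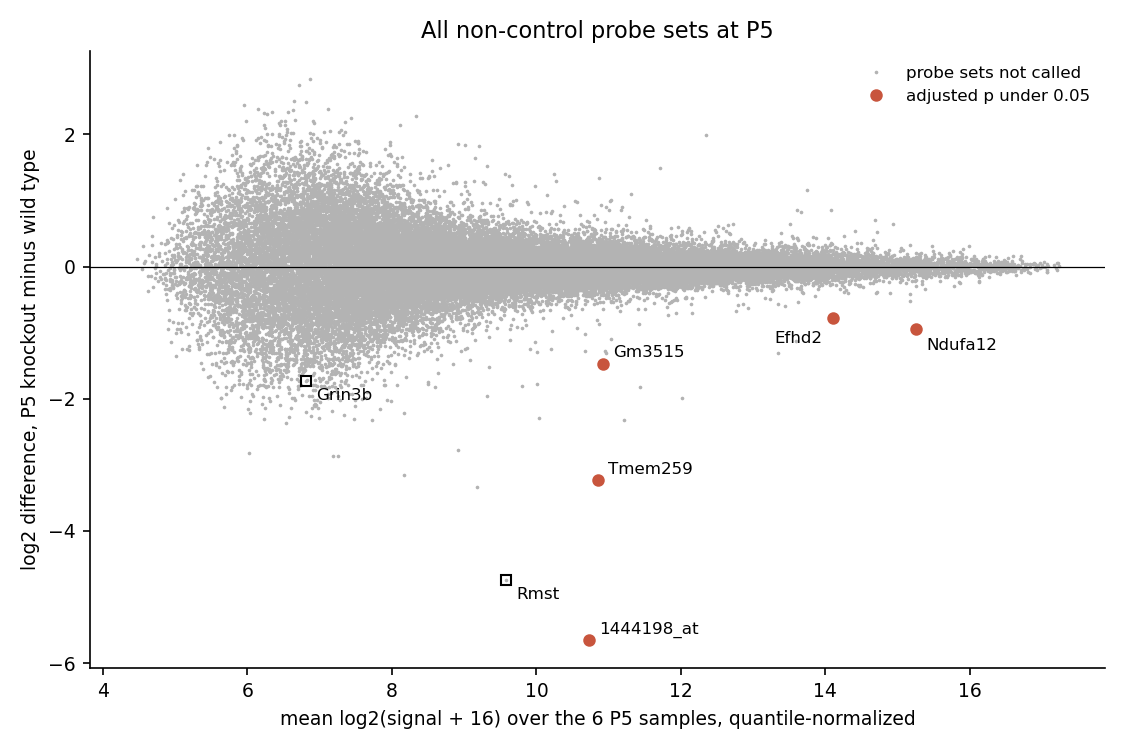
Difference between knockout and wild type at P5 (log2 scale, vertical axis) against the mean level over the 6 arrays (log2(signal + 16), horizontal axis) for every non-control probe set, with the probe sets past the adjusted p of 0.05 and the targeted gene marked. All 5 probe sets past the threshold lie below 0.

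The promoters of 3 genes are shown because they are those of the targeted gene and of 2 genes that passed the threshold. The sequences are the RefSeq windows of mouse assembly GRCm38.p6 from 250 bases before to 50 bases after the annotated start, read 5′ to 3′ on the strand of the gene. They lie at chr10:79970474-79970773 on the plus strand for Grin3b, chr10:94198785-94199084 on the plus strand for Ndufa12 and chr4:141874871-141875170 on the minus strand for Efhd2. Capitals mark every GGGCGG or TATAAA found on either strand, and GGGCGG read on the opposite strand appears as CCGCCC. The letters CCAAT, also searched on both strands, were not in these windows.
Grin3b: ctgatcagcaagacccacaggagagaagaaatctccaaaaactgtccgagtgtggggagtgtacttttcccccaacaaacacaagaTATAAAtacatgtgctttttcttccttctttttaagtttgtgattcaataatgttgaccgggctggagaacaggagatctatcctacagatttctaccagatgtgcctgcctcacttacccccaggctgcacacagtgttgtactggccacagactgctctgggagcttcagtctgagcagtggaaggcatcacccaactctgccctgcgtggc
Ndufa12: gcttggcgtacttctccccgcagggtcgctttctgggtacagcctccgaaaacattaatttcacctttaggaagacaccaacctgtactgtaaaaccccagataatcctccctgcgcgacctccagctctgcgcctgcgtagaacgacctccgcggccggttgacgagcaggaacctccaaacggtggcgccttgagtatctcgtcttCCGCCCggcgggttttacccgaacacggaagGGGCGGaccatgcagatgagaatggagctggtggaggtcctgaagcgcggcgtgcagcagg
Efhd2: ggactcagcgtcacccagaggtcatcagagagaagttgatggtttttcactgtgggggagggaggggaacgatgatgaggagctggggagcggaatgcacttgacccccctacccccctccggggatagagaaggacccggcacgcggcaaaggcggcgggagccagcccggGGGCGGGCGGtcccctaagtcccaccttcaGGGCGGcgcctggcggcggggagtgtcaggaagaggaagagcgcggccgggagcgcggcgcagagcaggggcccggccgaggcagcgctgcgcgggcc
The Grin3b window held 1 TATAAA, a motif in 13.6% of 32851 promoter windows. The Ndufa12 window held 2 GGGCGG and the Efhd2 window held 3, of which 2 overlap, and 35.7% of all windows held this motif. CCAAT was in 37.4% of them. The GC content was 48.3% for Grin3b, 59.3% for Ndufa12 and 70.3% for Efhd2, against a median of 52.7% over all windows. A match is a description of the letters and was not tested as a binding site.

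The targeted transcript was read by a single probe set, 1449899_at, which was dim, at the 11th percentile by mean level. Its signals were 272.9, 167.8 and 154.8 in the wild-type samples and 48.5, 39.7 and 45.4 in the knockout samples. Every knockout sample lay below every wild-type sample. The difference was -1.73 (SE 0.50, n = 3 per genotype) with an exact two-sided permutation p of 0.1, the smallest that 3 against 3 samples allow. Among all probe sets its limma adjusted p was 0.762, with 0.356 to 1 over 14 alternatives, so it passed in 0 of them. At P0 the difference was -2.12. The labels do not say whether the probe set lies in the deleted part.

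Tmem259 encodes membralin, a membrane protein of the endoplasmic reticulum. In the RefSeq gene order it is the next annotated gene to Grin3b, and the annotated spans of both overlap. Its probe set 1427109_at gave 5571, 5944 and 5465 in wild type and 541.4, 592.3 and 596.3 in knockout. No knockout sample came near a wild-type sample. The level fell by 3.23 on the log2 scale (SE 0.12), or 9.39-fold (limma adjusted p = 1.67e-06), and the probe set passed in 15 of 15 alternatives (2.81e-07 to 0.0169). At P0 the signals were 4446, 6281 and 4817 in wild type and 587.2, 342.2 and 95.0 in knockout, and the difference was -4.14. Reads of overlapping genes can be shared by a probe set, and the probe sequences were not used here.

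The transcript read by 1444198_at had the largest difference among those past the threshold. Its signals were 12240, 12777 and 10940 in wild type and 214.3, 162.3 and 300.1 in knockout, again with no overlap. It fell by 5.65 on the log2 scale (SE 0.19), or 50.2-fold (limma adjusted p = 9.06e-07), and it passed in 14 of 14 alternatives. At P0 the knockout samples gave 267.7, 389.3 and 2674 and the wild-type samples gave 14043 to 15104, a difference of -4.47. The platform annotation names no gene for it, so its place on a chromosome is not given here.

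Rmst is a long noncoding RNA gene that lies on the chromosome of Grin3b, 325 annotated genes away. It is read by 3 probe sets, of which 1 carries the older name Gm3515. That probe set, 1437418_at, gave 3358, 3222 and 3081 in wild type and 1191, 1087 and 1129 in knockout. The samples of each genotype lay close together and the genotypes did not overlap. The level fell by 1.47 on the log2 scale (SE 0.11, limma adjusted p = 0.00151), and the call was lost without the intensity trend (0.13) and in the fit of all 12 samples (0.444), the range over 15 alternatives being 6.35e-04 to 0.444. At P0 its difference was -0.46 and the genotypes overlapped, at 2474, 3861 and 1965 in wild type and 1377, 1799 and 2690 in knockout.

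A second Rmst probe set, 1438822_at, differed by more but with a wider spread. It gave 3733, 4262 and 3900 in wild type and 287.2, 217.7 and 28.1 in knockout. The knockout samples were all below the wild-type samples, and knockout sample 3 was the lowest. The difference was -4.74 (SE 0.58) at a limma adjusted p of 0.0597, just outside the threshold, and it passed in 6 of 15 alternatives (6.29e-05 to 0.523). The lowest of these was reached without knockout sample 3, and it also passed without knockout sample 1 (0.0361). The third probe set, 1440495_at, gave 497.8 to 591.5 in wild type and 322.7 to 400.4 in knockout, with a difference of -0.50 (SE 0.26, adjusted p = 0.837). At P0 these differences were -3.37 and -0.89. For 1438822_at the P0 knockout samples gave 250.6, 352.3 and 3316, against 6227 to 7884 in wild type.

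Ndufa12 lies on the same chromosome, 47 annotated genes from Rmst and 372 from Grin3b. Its 4 probe sets did not move together. Probe set 1455806_x_at gave 56196, 55053 and 49612 in wild type and 26881, 25171 and 33741 in knockout, without overlap, and fell by 0.95 on the log2 scale (SE 0.09, limma adjusted p = 0.00791). At P0 its difference was -0.23 and the genotypes overlapped, at 25004, 63713 and 25833 in wild type and 18823, 29311 and 53812 in knockout. The next, 1433513_x_at, differed by -0.51 (SE 0.10, adjusted p = 0.504), also without overlap. In the opposite direction, 1418814_s_at gave 20794 to 25290 in wild type and 26848 to 34048 in knockout, without overlap. It differed by 0.32 (SE 0.09, adjusted p = 0.774), and 1425919_at differed by 0.03 (SE 0.27). The suffixes x and s mark probe sets whose probes may match more than 1 transcript. The call on 1455806_x_at was lost without wild-type sample 1 (0.0899), wild-type sample 2 (0.0896) or knockout sample 1 (0.0539). It was also lost without the intensity trend (0.415), with all 12 samples in a fit (1) and with the replicate block (0.0815), and its adjusted p ran from 0.00127 to 1 over 15 alternatives.

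Efhd2, also called swiprosin, lies on another chromosome. Its probe set 1437478_s_at gave 24094, 22753 and 21712 in wild type and 13274, 13271 and 13870 in knockout. The genotypes were separated and the knockout samples nearly equal. The level fell by 0.78 on the log2 scale (SE 0.07), or 1.72-fold (limma adjusted p = 0.00249), and the call was lost in 3 of 15 alternatives, over which the adjusted p ran from 6.35e-04 to 0.604. Its second probe set, 1431339_a_at, gave 4614 to 4991 in wild type and 3582 to 5125 in knockout, a difference of -0.13 (SE 0.12), and the genotypes overlapped. At P0 the difference of 1437478_s_at was -0.06. The P0 signals were 16059, 14519 and 14993 in wild type and 11997, 12823 and 21541 in knockout samples 1, 2 and 3. That mean difference thus depends on P0 knockout sample 3.

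**Figure D2:**
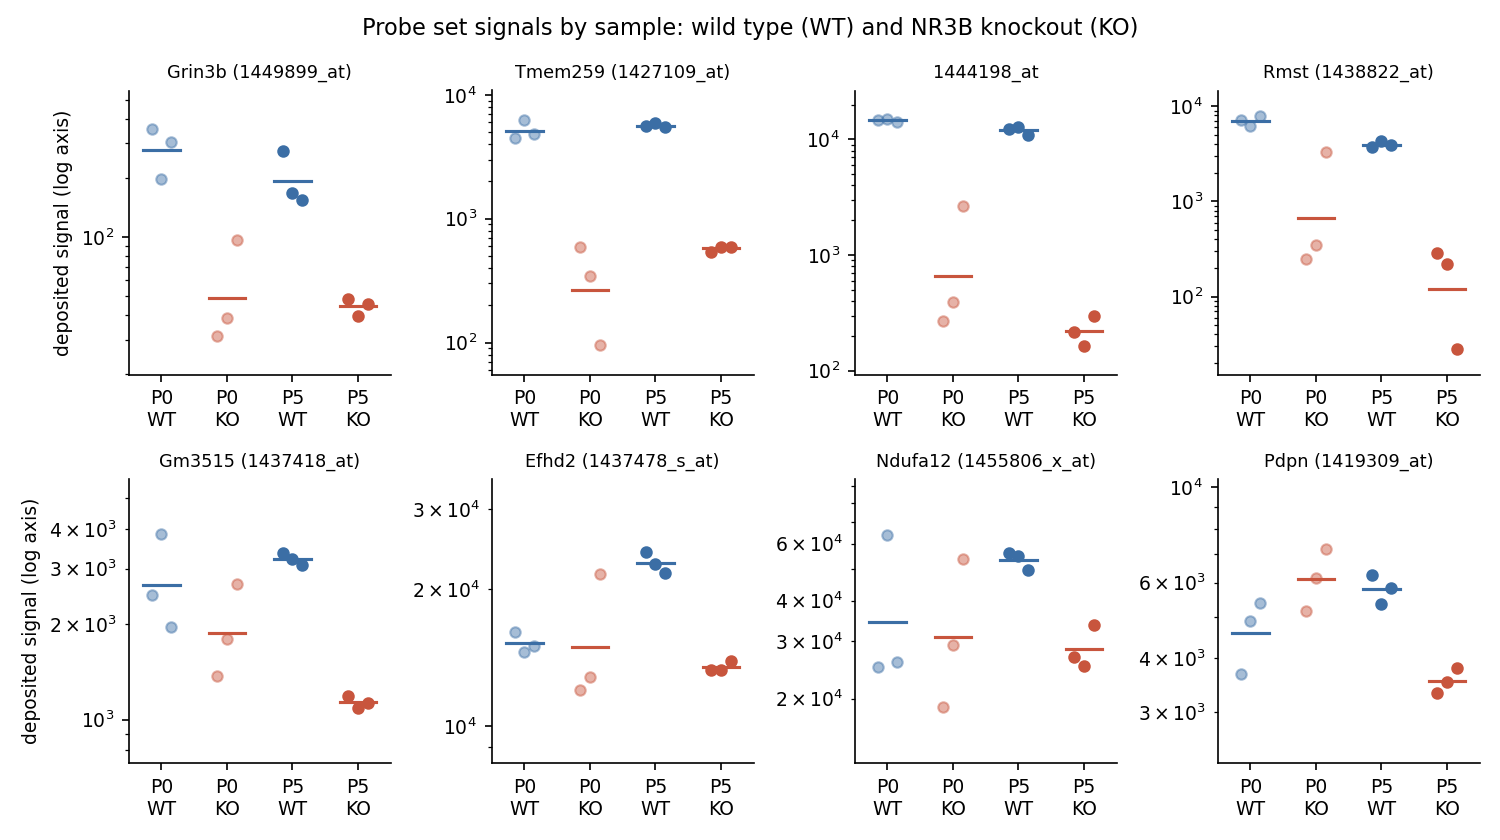
Deposited signal of each sample, on a log axis, at P0 (pale) and P5 for the probe sets past the threshold and for Grin3b, Rmst and Pdpn, with a point per sample and a line at the group mean of the log values. At P5 the genotypes do not overlap in any of these 8 probe sets, whereas at P0 they overlap in Gm3515, Efhd2, Ndufa12 and Pdpn.

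**Figure D3:**
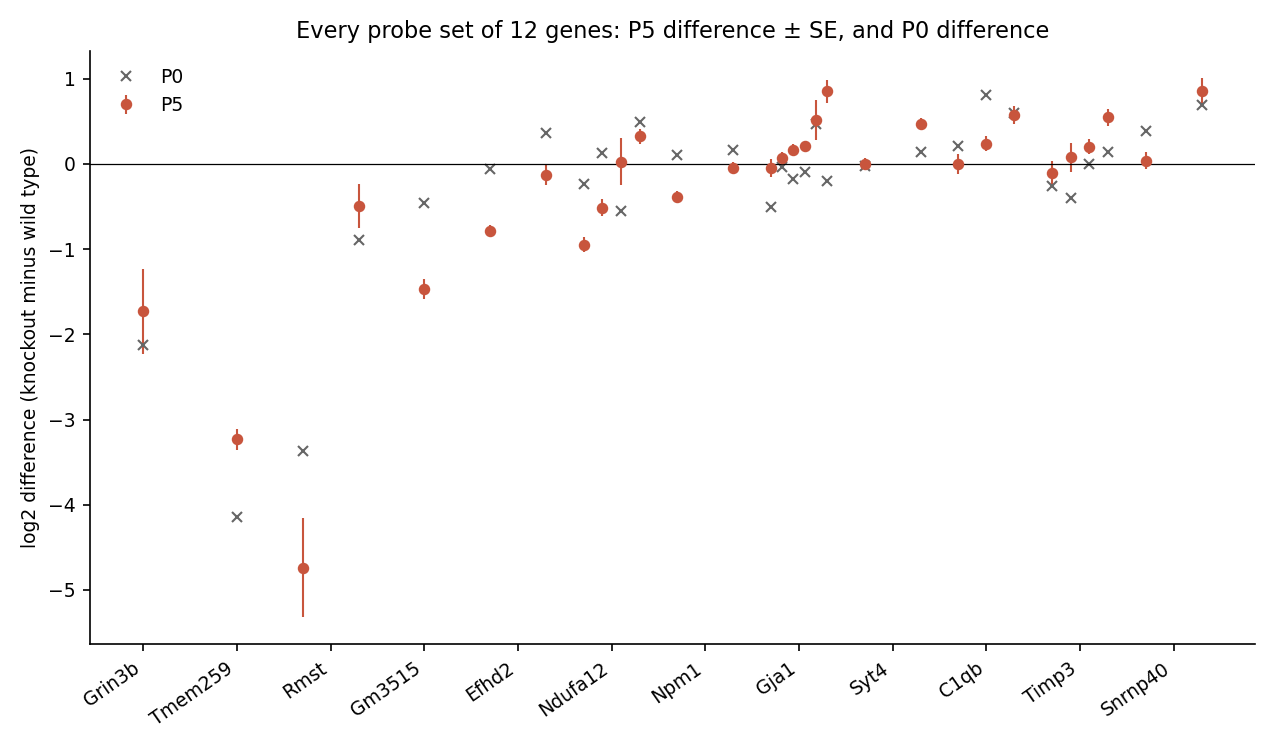
Difference between knockout and wild type at P5 (log2 scale) for every probe set of 12 genes, with points for P5, the standard error as bars and crosses for P0. At P5, for Ndufa12 the differences run from -0.95 to 0.32, and for Efhd2 they are -0.78 and -0.13.

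The genes with the smallest p-values lay on the chromosome of Grin3b more often than annotated probe sets in general. Of the 10 annotated probe sets with the smallest p, 5 were on it (50%), as were 7 of the first 20 (35%), 9 of the first 50 (18%) and 43 of the first 500 (8.6%). Of all 34800 annotated probe sets 1662 were on it (4.78%). These counts place 59 probe sets, Gm3515 among them, through an older name that a single RefSeq gene lists. The 5 were those of Tmem259, Gm3515, Ndufa12, Rmst and Gja1. Probe sets of 1 gene are counted separately here, and no test was made. Among the 25 annotated genes on each side of Grin3b, 38 of 50 were measured and 1 passed the threshold, Tmem259. Of these 38 genes, 4 were higher and 4 lower in the knockout without overlap, and their median difference was 0.03, against 0.01 over all 18193 genes. A gene is represented here and in the lists below by its brightest probe set, and by that measure 4 of all genes (0.022%) passed, while 7.01% were higher and 5.23% lower without overlap. By that measure Gm3515 counts as a gene of its own, apart from Rmst.

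Around Rmst, 13 of the 50 neighbouring genes were measured and 0 passed, with a median of -0.01. Without overlap 3 were higher and 3 lower, against 7.01% and 5.23% of all 18193 genes, so opposite signs offset each other in that median. An unadjusted limma p under 0.05 was reached by 6 of the 13, against 1119 of all genes. These 6 were Mir1931, Anks1b, Actr6, Cdk17, Cfap54 and Uhrf1bp1l, each with the same sign at P0. Whether the region differs from others was not tested. The probe set annotated to Mir1931, 1446130_at, gave 830.4, 741.9 and 619.7 in wild type and 130.7, 358.1 and 137.4 in knockout. The genotypes did not overlap, and the difference was -1.83 (SE 0.40, limma adjusted p = 0.554), with -2.12 at P0. The probe set lies in the Rmst neighbourhood only by its annotation to that microRNA gene, whose mature product arrays of this kind are not built to read.

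**Figure D4:**
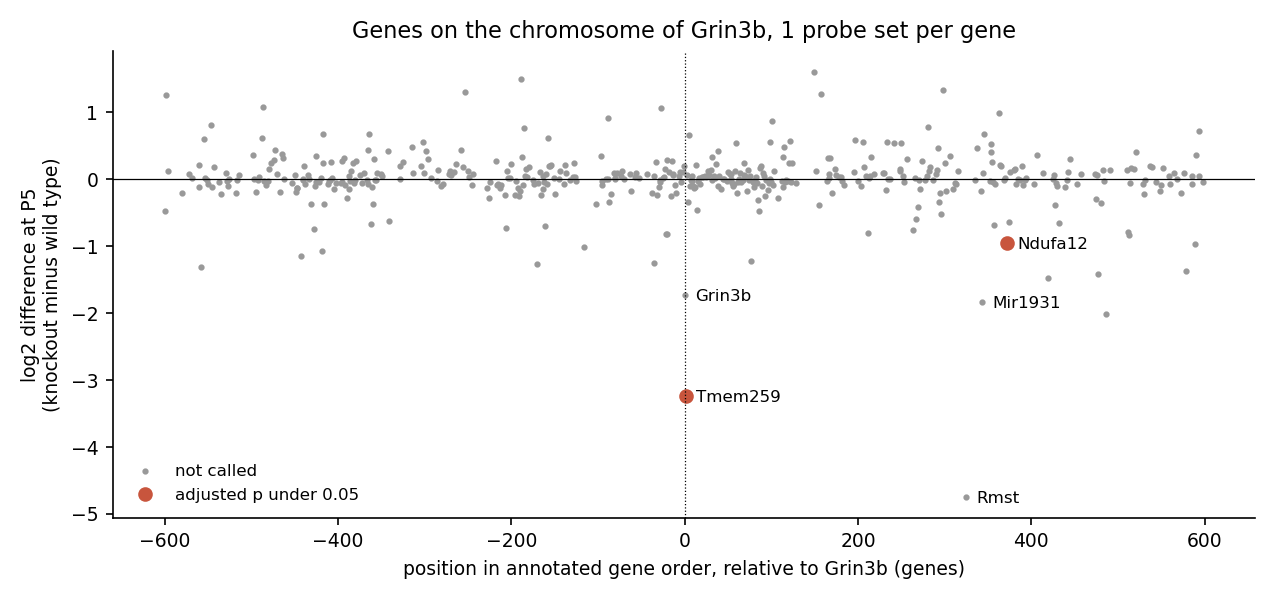
Difference between knockout and wild type at P5 (log2 scale) for genes on the chromosome of Grin3b, each at its brightest probe set, in annotated gene order with Grin3b at 0 on the horizontal axis. Tmem259 lies beside Grin3b at -3.23, while Rmst and Ndufa12 lie 325 and 372 genes away. Genes were taken by annotated name, so Rmst is represented by 1438822_at and not by the brighter probe set named Gm3515.

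Among the genes of smallest p that did not pass, Pdpn was the nearest after Rmst. Pdpn encodes podoplanin, a membrane glycoprotein of choroid plexus, meninges and some glia, and lies 25 annotated genes from Efhd2. It gave 6249, 5344 and 5813 in wild type and 3314, 3510 and 3798 in knockout, without overlap. The difference was -0.70 (SE 0.10, limma adjusted p = 0.18), whereas at P0 it was 0.44 with the opposite sign. The test of the difference between ages gave -1.14 with an unadjusted p of 2.29e-04 and an adjusted p of 0.838.

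The next named genes by p had a limma adjusted p from 0.269 to 0.504, and each passed in 0 alternatives. Fra10ac1 gave 1409, 1333 and 1325 in wild type and 2210, 2262 and 2449 in knockout without overlap, a difference of 0.79 (SE 0.12), but -0.14 in its other probe set. Syt4, a synaptotagmin of secretory vesicles, gave 9432, 10421 and 10542 in wild type and 14674, 13466 and 14337 in knockout with no overlap, a difference of 0.47 (SE 0.08), but 0.00 in its other probe set. Gja1, the main gap junction protein of astrocytes, differed by 0.85 in 1438650_x_at and by -0.05 to 0.51 in its 5 other probe sets. Cdc42ep5 and Col20a1 were read by dim probe sets, at the 16th and 12th percentiles by mean level. Cdc42ep5, an effector of the Cdc42 switch protein, differed by -2.87 (SE 0.46) and by 0.11 in its brighter probe set. Col20a1, a collagen chain, differed by 2.84 (SE 0.48) and by 0.48 to 1.04 in its 3 others. The unnamed probe sets that ranked just before these genes, 1457297_at and 1457416_at, differed by -1.81 and -1.95.

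Snrnp40, a spliceosome protein, differed by 0.86 at P5 and 0.69 at P0 in 1452713_a_at, and by 0.04 in its second probe set at P5. The difference was 0.49 for Acsl3, an enzyme that activates long-chain fatty acids, and -0.01 and -0.11 in its other probe sets. Npm1, a nucleolar chaperone, differed by -0.39 and by -0.04 in its other probe set. C1qb, a chain of complement C1q, differed by 0.57, and by 0.24 and -0.00 in its other probe sets. Trim9, a ubiquitin ligase of neurons, differed by 0.60, and by -0.23 to -0.03 in its 3 others. Ctse, the protease cathepsin E, differed by 0.86 and by -0.15 in its other probe set. Timp3, an inhibitor of metalloproteinases, differed by 0.55, and by -0.10 to 0.20 in its 3 others. Atp5o, a subunit of ATP synthase, differed by 0.36 and by -0.05, and Akirin1 by 0.52 and by -0.09. In each of these genes the other probe sets were nearer to 0 than the one that ranked high.

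The same genes were compared at P0, in samples that share no control with P5. The ages differed in sex-linked signals. Xist probe set 1427262_at gave 16450 to 24932 in P0 samples 1 and 2 of each genotype. It gave 238.6 in P0 wild-type sample 3 and 89.8 in P0 knockout sample 3, while at P5 only knockout sample 2 was high. How this bears on the comparison of ages was not tested. Of the 5 probe sets past the threshold at P5, 5 had the same sign at P0, but only Tmem259 and 1444198_at, each lower in the knockout, separated the genotypes there. Over all probe sets at P0 the genotypes were separated with higher values in 5.4% and lower values in 5.32%. Of the 20 named genes 12 had the same sign. Of the 100 annotated or unannotated probe sets with the smallest p at P5, 69 had the same sign and 13 also separated the genotypes in that direction. At P0 itself 0 of 45037 probe sets passed in limma (0%), with 2707 at an unadjusted p under 0.05, although 4 passed without P0 knockout sample 3 and 1 without P0 knockout sample 1. In the test of whether the genotype difference changed with age 0 probe sets passed (0%), with 2243 at an unadjusted p under 0.05. The interaction was -0.73 (SE 0.23) for Efhd2 1437478_s_at and -1.01 (SE 0.38) for Gm3515, each at an adjusted p of 0.838. For both, P0 knockout sample 3 had the highest signal of the P0 knockout samples. The median spread within a group was smaller at P5, with an SD of 0.229 in wild type and 0.240 in knockout, than at P0, with 0.354 and 0.331. The P0 arrays were less alike. The 18S RNA control gave 7728 in P0 wild-type sample 1 and 48911 to 102801 in the other P0 arrays. P0 knockout sample 3 had a median signal of 605.0 and an actin log2 ratio of 0.66, the lowest and the highest in the series. What this does to the P0 differences was not tested.

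The other NMDA receptor subunits overlapped between the genotypes in every probe set. Grin2a, the subunit that comes up as synapses mature, differed by -0.17 (SE 0.36). Grin2b, the main partner of Grin1 in the newborn brain, differed by -0.09 to 0.44 over its 4 probe sets. Grin2c differed by 0.56 (SE 0.38), and Grin2d by 0.21 and -0.13. Grin3a, the closest relative of Grin3b, differed by 0.00, 0.04 and 0.14, and its brightest probe set gave 4923 to 5156 in wild type and 4315 to 5733 in knockout. Grin1 is not reported, since no probe set carried its name alone.

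No member of the lists of other transmitter receptors passed the threshold. Their counts without overlap stand beside 7.01% of all genes higher and 5.23% lower. AMPA receptors carry most fast glutamate signalling. The list of 12 genes for AMPA and kainate receptors includes Cacng2, Cacng3 and Cacng8, which are not receptor subunits. In it 2 were higher and 0 lower without overlap, with a median of 0.08. Gria3 gave 4225, 4742 and 4913 in wild type and 5460, 5300 and 5460 in knockout, a difference of 0.24 (SE 0.09), and Grik1 differed by 0.24. Of 6 metabotropic glutamate receptor genes 1 was higher without overlap, and the median was 0.01. Of 14 GABA and glycine receptor genes 4 were higher and 2 lower without overlap. Glra1, the adult-type alpha subunit of the glycine receptor in brainstem and spinal cord, gave 1171, 1026 and 1025 in wild type and 616.6, 527.8 and 654.9 in knockout. All its knockout samples were lower, and the difference was -0.79 (SE 0.19, limma adjusted p = 0.619), with -0.05 at P0. Glrb, the beta subunit that anchors the receptor, differed by 0.24 (SE 0.08).

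Motor neuron genes also had no member past the threshold. Of 14 measured genes for motor and cholinergic neurons, 6 were above 0 and 8 below. Without overlap 0 were higher and 2 lower, against 7.01% and 5.23% of all genes. The median was -0.05, moving to -0.17 without knockout sample 3. Isl1, a transcription factor of motor and some sensory neurons, gave 867.9, 645.8 and 790.4 in wild type and 514.5, 326.7 and 597.0 in knockout. The difference was -0.65 (SE 0.27, limma adjusted p = 0.815), with 0.35 at P0. Slc18a3, the vesicular acetylcholine transporter, differed by -0.27 (SE 0.18) and Chat, which makes acetylcholine, by -0.17 (SE 0.28) with overlapping genotypes. The largest difference in the list was that of Lhx4, a transcription factor of motor neuron development, at 1.43 (SE 0.80). Its signals overlapped, at 54.5 to 465.8 in wild type and 117.7 to 696.5 in knockout, and Isl2 differed by 0.45 (SE 0.29). The summed signal of the 14 genes was 23887 to 25054 in wild type and 22374 to 24592 in knockout.

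Because membralin resides in the endoplasmic reticulum, the genes of protein quality control there were read as lists. Of 24 genes of endoplasmic reticulum-associated degradation, 0 passed, 2 were higher and 2 lower without overlap, and the median was 0.04. Rnf5, a ubiquitin ligase of that membrane, gave 11945, 12108 and 13844 in wild type and 9755, 11327 and 10385 in knockout, a difference of -0.29 (SE 0.08), whereas Ube2j1, a conjugating enzyme, differed by 0.19. Of 24 genes of the unfolded protein response, 0 passed, 15 were above 0 and 9 below, and the median was 0.05. Without overlap 6 were higher and 0 lower, against 7.01% and 5.23% of all genes. Whether either list is linked to Tmem259 was not tested. Dnajc3, a chaperone partner in the lumen, gave 5468, 5480 and 5767 in wild type and 7086, 7319 and 6740 in knockout. No sample overlapped, and the difference was 0.35 (SE 0.08, limma adjusted p = 0.554), with -0.14 at P0. Ppp1r15a, which directs removal of the stress phosphate from eIF2 alpha, differed by 0.32 (SE 0.13), and Ddit3, a stress transcription factor, by 0.23 (SE 0.13). The median of the second list moved to 0.01 without knockout sample 2 and 0.02 without knockout sample 3.

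Microglial genes had the list median farthest from that of all genes. Of 21 measured microglia genes 18 were above 0, against 9380 of all 18193 genes. The median was 0.25 (0.22 to 0.27 over 11 alternatives), although 0 passed. Without overlap 9 were higher and 0 lower, against 7.01% and 5.23% of all genes. Csf1r, the receptor that microglia need to survive, gave 13037, 13357 and 12465 in wild type and 15404, 15917 and 15323 in knockout. The genotypes were apart, and the difference was 0.25 (SE 0.07, limma adjusted p = 0.709). C1qa, a chain of the complement starter C1q, gave 3252, 2874 and 3608 against 3641, 4443 and 4102 and differed by 0.34 (SE 0.12), and C1qc differed by 0.29. For P2ry12 and Cx3cr1, receptors of resting microglia, the differences were 0.23 and 0.20, while Tmem119 and Ptprc were at 0.01. The summed signal of the 21 genes was 49756 to 53359 in wild type and 57085 to 64834 in knockout. In such tissue samples more or fewer cells of a type cannot be told apart from more or less RNA per cell. At P0 the list median was 0.31, against 0.07 over all genes.

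Immediate early genes, which neurons switch on within minutes of activity, had a median of 0.19 over 20 members (0.11 to 0.26 over 11 alternatives). Of these 15 were above 0 and 5 below, with differences from -0.65 to 1.33, and 13 were at the 40th percentile of mean level or brighter. Without overlap 4 were higher and 0 lower, against 7.01% and 5.23% of all genes, and 0 passed. Fos gave 2653, 2586 and 2480 in wild type and 4332, 3701 and 2887 in knockout. All knockout samples were higher, with sample 3 nearest to wild type, and the difference was 0.50 (SE 0.14, limma adjusted p = 0.719). Junb gave 255.2, 436.4 and 326.5 against 701.8, 463.2 and 614.6 and differed by 0.83 (SE 0.30). Dusp6, which turns off ERK signalling, differed by 0.30 (SE 0.10), and Egr1 by 0.47 with overlapping genotypes.

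**Figure D5:**
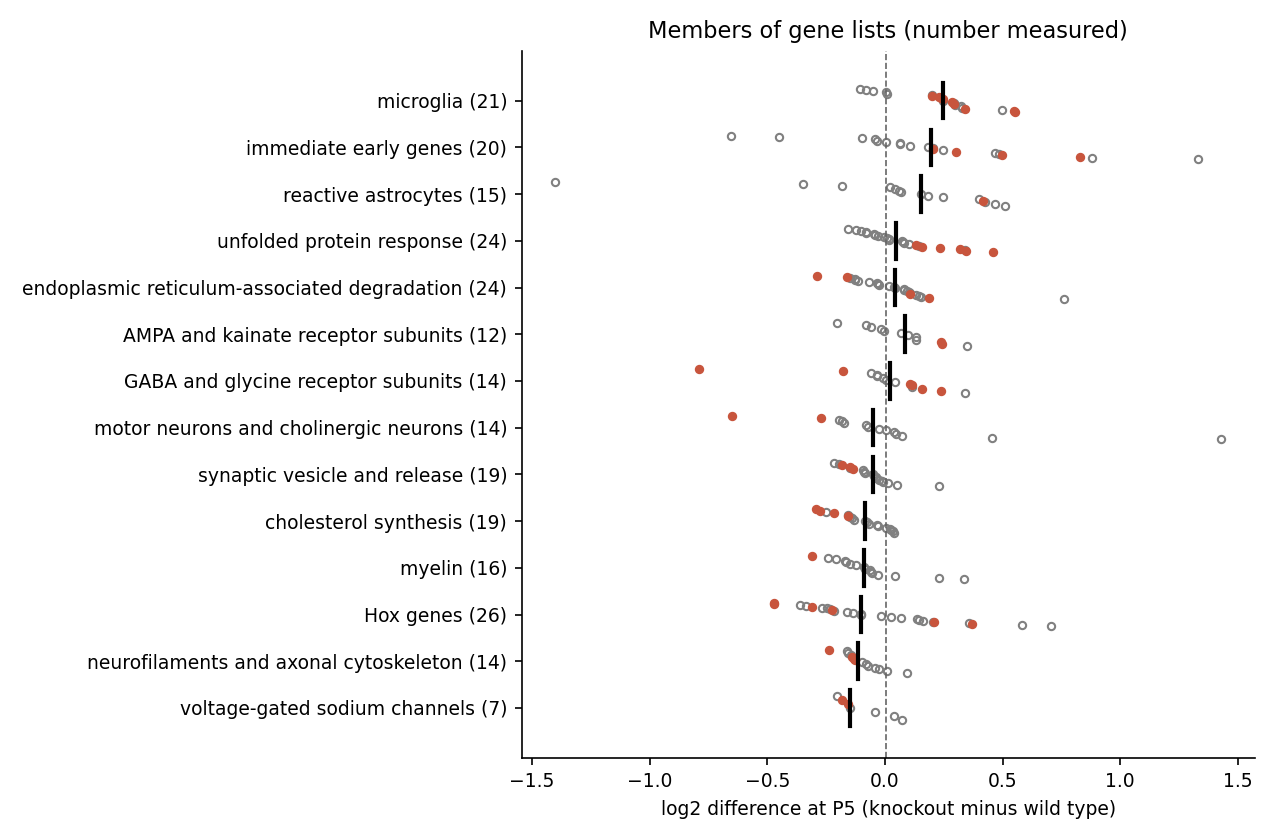
Difference between knockout and wild type at P5 (log2 scale) of the members of the gene lists described, each gene at its brightest probe set, with a bar at each list's median and members whose genotypes do not overlap after normalization in a separate colour. Microglia have the median farthest above 0, at 0.25, and voltage-gated sodium channels lie at -0.15.

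The lowest list medians were those of sodium channel, neurofilament, Hox, myelin and cholesterol synthesis genes, with 0 members past the threshold. Among all genes, 5.23% were lower and 7.01% higher without overlap, and no list was tested against these shares. For comparison, voltage-gated potassium channels had a median of 0.02 and excitatory postsynaptic scaffold genes of -0.07. Of 13 voltage-gated calcium channel genes 12 were below 0 and 1 above, with a median of -0.06. Synaptic vesicle and release genes had 16 below 0 and 3 above, with a median of -0.05. Of 7 voltage-gated sodium channel genes 2 were lower without overlap, and the median of -0.15 moved to -0.03 without wild-type sample 1, -0.11 without knockout sample 1 and -0.08 without knockout sample 2. Of 14 neurofilament and axonal cytoskeleton genes 12 were below 0 and 4 lower without overlap, with a median of -0.11. Nefh, the heavy neurofilament chain, gave 7950, 7743 and 7768 in wild type and 5887, 6723 and 7364 in knockout, a difference of -0.24 (SE 0.09) with no overlap. Of 16 myelin genes 13 were below 0 and 1 was lower without overlap, with a median of -0.09. Of 19 cholesterol synthesis genes 4 were lower and 0 higher without overlap, with a median of -0.08 that moved to -0.15 without wild-type sample 2. Dhcr7, which makes the last step to cholesterol in one branch, gave 6133, 6515 and 6970 against 5096, 5503 and 5522 and differed by -0.28 (SE 0.08).

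Of 26 Hox genes, which set position along the hindbrain and spinal cord, 2 were higher and 4 lower without overlap. These counts stand beside 7.01% and 5.23% of all genes, and the list median was -0.10. Hoxc4 gave 3270, 3239 and 3132 in wild type and 2435, 2281 and 2148 in knockout. The genotypes were well apart, and the difference was -0.47 (SE 0.10, limma adjusted p = 0.554), with 0.07 at P0. Hoxc8 differed by -0.31 and Hoxb5 by -0.23, whereas Hoxd10 differed by 0.37. The summed signal of the 26 genes was 44353 to 45350 in wild type, and it was 44681, 38323 and 38441 in knockout samples 1, 2 and 3. Whether the parts of the tissue were sampled evenly was not tested.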

How the data were processed

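Total RNA was read on Affymetrix mouse arrays. The authors deposited probe set signals, a linear intensity, in a table of the whole series, and no source used here names the software behind them. On every array the mean after trimming 2% of probe sets at each end was 2500.01. The number of arrays, 3 per group, limits the precision. No depth applies.

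Signals were transformed as log2(signal + 16) and quantile-normalized over the 6 P5 arrays. All 45037 non-control probe sets were fitted with limma 3.58.1 in R 4.3.3, with a mean per genotype, an intensity-dependent prior (6.35 prior degrees of freedom) and Benjamini-Hochberg adjustment. P0 was fitted alike, and the interaction on all 12 arrays. The fits were tested on simulated data. The platform annotation gave 1 symbol for 34945 probe sets, several for 932 and none for 9160, and 34741 matched the RefSeq gene table of GRCm38.p6, used for names and gene order. Of 6 genes sought, 3 had a promoter window in the RefSeq table.

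The text names the targeted gene, genes past the threshold, those of smallest p up to 20 genes, all their probe sets, NMDA receptor subunits, sex-linked genes and up to 4 members of smallest p per list described. C1qc, P2ry12, Cx3cr1, Tmem119, Ptprc, Chat, Egr1, Mir1931, Minar2, Hddc3, Scyl2, Grik1 and Hoxd10, among others beyond that number, were chosen after their values were seen. The members and the 40 gene lists were chosen with earlier results of these data known. Alternatives were the deposited scaling, pseudocounts of 1 and 64, a filter at the 40th percentile, 1 probe set per gene, other priors, all 12 samples in a fit, a replicate block and leaving out each sample.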

Additional observations from a re-analysis of the deposited data

How the results depend on the processing

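The count of probe sets past the threshold at P5, 5 in the fit reported, stayed at 5 or 6 under the deposited scaling, pseudocounts of 1 and 64, the filter at the 40th percentile, 1 probe set per gene and the robust prior. It was 2 without the intensity trend in the prior and 2 with all 12 samples in the fit, and leaving out each sample gave 4 to 9. At P5, same-numbered wild-type and knockout samples deviated from their group means with correlations of -0.002, -0.012 and -0.017 over all probe sets. Such values cannot exclude a pairing or batch that affects some genes, and the labels do not say what the numbers mean. With the replicate block 3 probe sets passed, 1444198_at, Tmem259 and Gm3515, and 0 passed at P0 and in the interaction. At P0 leaving out each sample gave 0 to 4, and the interaction gave 0 throughout. No value called here changed its sign in these alternatives. Ndufa12 passed in 9 of 15 and Efhd2 in 12 of 15. The deposited scaling moved the median of all probe sets from -0.00 to -0.02. List medians near 0 moved with single samples, and that of motor neuron genes ran from -0.17 to 0.02. For moved counts the cause was not tested.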

Other observations

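Astrocyte and progenitor lists had 0 members past the threshold. Without overlap 7.01% of all genes were higher and 5.23% lower. Of 18 astrocyte genes 3 were higher and 0 lower without overlap, with a median of 0.01. Gfap, the astrocyte intermediate filament, gave 23658, 24423 and 21643 in wild type and 25659, 28109 and 30421 in knockout, a difference of 0.24 (SE 0.07). Of 15 reactive astrocyte genes 12 were above 0, with a median of 0.16 that moved to 0.26 without knockout sample 3. In this list 1 gene was higher without overlap, Serpina3n, a protease inhibitor, with a difference of 0.42 (SE 0.13) at P5 and -0.97 at P0. Of 16 neural progenitor genes 3 were higher without overlap, among them Hes1, a target of Notch signalling, which gave 884.4, 1010 and 992.2 in wild type and 1374, 1442 and 1428 in knockout, a difference of 0.59 (SE 0.15, limma adjusted p = 0.672).

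Genes of red blood cells, meninges and oxidative phosphorylation had P5 medians of 0.03, 0.06 and -0.02, against 0.76, 0.46 and 0.36 at P0. The medians of all genes were 0.01 at P5 and 0.07 at P0, and no test was made of these medians. At P0 the summed red blood cell signal was 7083 to 12720 in wild type and 11502 to 15666 in knockout. The meningeal sum was 124527 to 152541 in wild type and 203801 to 239585 in knockout. Of 25 interferon-responsive genes 0 separated the genotypes at P5, with a median of -0.01. Of 24 splicing regulators 5 were higher and 1 lower without overlap, against 7.01% and 5.23% of all genes, with a median of 0.02. Hnrnpl, an RNA-binding regulator of splicing, differed by 0.52 (SE 0.12, limma adjusted p = 0.619) at P5 and by 1.22 at P0.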
